A study of Mus musculus with 203 samples.

Results

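The airway response to 11 weeks of house dust mite (HDM) exposure was compared with the response to 3 weeks in bulk RNA-sequencing libraries of mouse airway tissue. The comparison used 41 libraries, 20.2% of those in the series, namely 11 from 3-week PBS mice, 10 from 3-week HDM mice, 10 from 11-week PBS mice and 10 from 11-week HDM mice, chosen by the group named in each label. All mice were female Balb/C animals, and the labels give an age of 18 to 20 weeks in every group. HDM extract was given into the nose on 5 days a week for 3 weeks, and the 11-week mice went on to receive it 3 times a week from week 4 to week 11, so the dosing frequency differed between the times as well as the duration. PBS was the vehicle given to controls of the same length. The 11-week groups, labelled PBS.AIR and HDM.AIR, breathed normal air as the unexposed arm of a smoking experiment, and received no dexamethasone. Airway was separated from parenchyma by blunt dissection. Each library carries its own code (an X and a number) and no batch, cage or day is named, so p-values measure the spread between these libraries. Nothing tells time point apart from the batch of mice, tissue or sequencing that came with it.

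HDM carries proteases and other allergens that stress the airway epithelium, which then releases alarmins such as IL-33. Type 2 lymphocytes answer with IL-4, IL-5 and IL-13, which call in eosinophils and turn secretory cells toward mucus. With continued allergen, B cells switch antibody class and mature into plasma cells, which can persist in tissue, while interferon-driven genes mark a separate arm of innate and T cell immunity.

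Library totals were 23368612 to 37065393 estimated counts. Levels are given as CPM, counts scaled to a common library size with TMM factors, and effects as log2 fold change (log2FC) of HDM over PBS at the same time. The difference is the effect at 11 weeks less the effect at 3 weeks, on the log2 scale, with its standard error (SE). Only this difference was tested, by limma-voom with Benjamini-Hochberg adjustment over 17608 genes, and the effects at each time are a description. Scgb1a1, the main secretory product of club cells, was at 8272 CPM or more in every library, so airway epithelium was present throughout. Alveolar genes were also present, with a summed level of 4757 to 32718 CPM over the alveolar type II list. On the first principal component of the 500 most variable genes (68.2% of their variance), every PBS library had a score above every HDM library, and 3-week PBS library X21 was the nearest PBS library to HDM, with a score of 2.3 against a 3-week PBS median of 39.3. The PBS libraries X161, X181, X65 and X1 came next, and counts are also given without these 5 libraries where this matters. X65 is an 11-week PBS library and the others are 3-week PBS libraries, so leaving them out thins mainly the 3-week PBS group.

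The HDM effect differed between 3 and 11 weeks for many genes, in both directions. A gene was called when its adjusted p was under 0.05 and its difference was at least 1 or at most -1. In limma-voom, 471 genes were called higher at 11 weeks (2.67% of those tested) and 412 lower (2.34%). On adjusted p alone, 2213 genes passed higher (12.6%) and 2044 lower (11.6%), and these shares are the background for the gene lists below. The median difference of all genes was 0.01. Across genes the effects at the 2 times, which share no library, had a Pearson r of 0.83. Of the genes called higher, 35.5% had a positive effect that grew, 38% had a negative effect that shrank and 26.5% had a negative effect at 3 weeks and a positive one at 11. Of the genes called lower, 47.3% had a positive effect that shrank, 45.6% went from a positive to a negative effect and 7.04% had a negative effect that grew. Without the 5 PBS libraries, 378 genes were called higher and 374 lower, and 330 of the 471 and 313 of the 412 were among them.

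**Figure D1:**
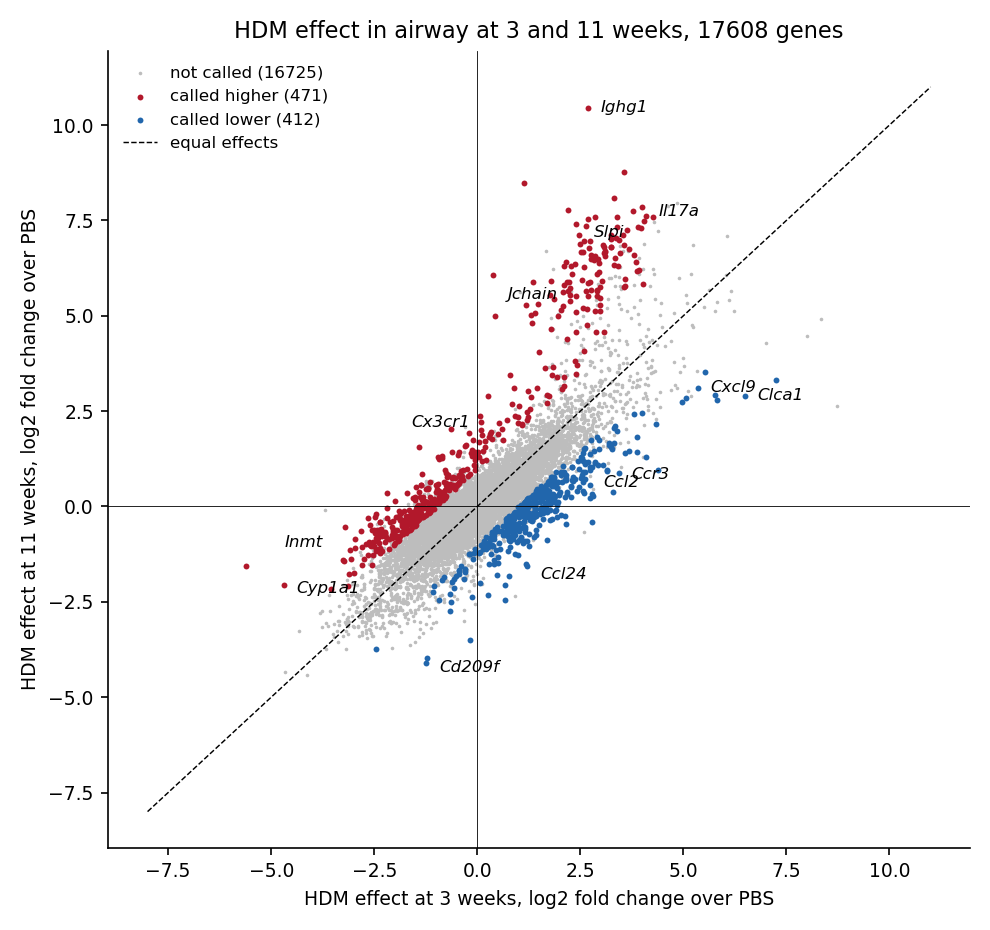
Each point is 1 of 17608 genes, with the log2FC of HDM over PBS at 3 weeks on the horizontal axis and at 11 weeks on the vertical axis; the dashed line marks equal effects. The 471 genes called higher (red) lie above the line, with Ighg1 at 2.69 and 10.45, and the 412 called lower (blue) lie below it, with Clca1 at 6.49 and 2.91.

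Immunoglobulin genes by annotation made up 21.9% of the genes called higher. Of those tested, 53.1% were called higher and 0 lower in limma-voom, with a median log2FC of 2.92 at 3 weeks and 5.79 at 11 weeks. This group was taken from the annotation after values were seen, so its share is a description. Members of these families share sequence, and the split of reads between single V genes is uncertain. The share that passed was 25.3% without the 5 PBS libraries and 45.9% without X21 alone. Summed over these genes, immunoglobulin took 0.0499% to 1.25% of counts in 3-week PBS libraries (median 0.126%), 0.555% to 1.96% in 3-week HDM libraries (median 1.04%), 0.0552% to 0.303% in 11-week PBS libraries (median 0.0672%) and 2.92% to 6.31% in 11-week HDM libraries (median 4.93%). Every 11-week HDM library thus lay above every other library, while X21 held the highest share among 3-week PBS libraries.

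Ighg1, the constant gene of the IgG1 heavy chain (chr12:113325240-113330523, minus strand, mm10), showed the largest difference that held in every fit leaving out 1 library. Its level was 32.1 to 4381 CPM in 3-week PBS libraries (median 110.9), 632 to 2441 in 3-week HDM (median 1348), 1.24 to 47.1 in 11-week PBS (median 13.4) and 9654 to 20485 in 11-week HDM (median 17436). All 11-week HDM libraries were above all others. The 3-week groups overlapped because X21 (4381 CPM), X181 (1128 CPM) and X161 (721.8 CPM) were high for PBS. The difference was 7.75 (SE 1.08, adjusted p = 1.6e-06, limma-voom), of which the PBS libraries contributed a fall by 4.17 and the HDM libraries a change of 3.58. It was 6.47 without the 5 PBS libraries. In bulk tissue, more plasma cells and more RNA per cell cannot be told apart.

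The other constant genes varied. Igkc, the kappa light chain constant gene, had medians of 271.2, 2060, 145.6 and 9538 CPM in 3-week PBS, 3-week HDM, 11-week PBS and 11-week HDM libraries, and every 11-week HDM library (5511 to 12899) exceeded every 3-week HDM library (1068 to 3984). Its difference was 3.00 (SE 0.64, adjusted p = 0.00062). Igha, which encodes the IgA heavy chain of mucosal surfaces, had medians of 203.3, 1688, 95 and 3546 CPM and a difference of 2.15 (SE 0.51, adjusted p = 0.0019). Ighg2b had a difference of 3.44 (SE 0.86, adjusted p = 0.0032). Ighm, the heavy chain made before class switching, did not pass, with effects of 2.54 and 2.93 and a difference of 0.39 (SE 0.56, adjusted p = 0.65). Ighe, the IgE heavy chain, was below 2 CPM in every library and did not pass either (1.99, SE 1.02, adjusted p = 0.15). Of the 10 tested members of the constant gene list, which also holds the transport receptor gene Pigr (0.32, adjusted p = 0.36), 4 passed higher and 0 lower.

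Of the 10 genes named by size in this direction, 9 were V genes, led by Ighv1-81 (7.36), Igkv12-98 (5.57), Ighv1-82 (5.22) and Ighv1-77 (5.01). Ighv1-81 was at 0 to 0.621 CPM in 3-week PBS, 0.043 to 1.39 in 3-week HDM, 0 to 0.163 in 11-week PBS and 4.69 to 31.4 in 11-week HDM libraries. Its 11-week HDM libraries lay above all others, and its difference had an SE of 1.43 (adjusted p = 0.00023). Ighv1-72, with a difference of 4.64, was the only one of these V genes that no longer passed without the 5 PBS libraries (3.11, adjusted p = 0.0773).

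Several genes of antibody-secreting cells passed higher beside the immunoglobulins. On the germinal centre and plasma cell list 6 of 14 passed higher and 0 lower, with a median effect of 1.53 at 3 weeks and 2.82 at 11 weeks. Jchain, which joins polymeric IgA and IgM, had levels of 133.7 to 4074 CPM (median 316.8) in 3-week PBS, 1120 to 4956 (2533) in 3-week HDM, 101.8 to 618.9 (182.4) in 11-week PBS and 5290 to 11043 (8406) in 11-week HDM libraries. The 11-week HDM libraries were above all others, and the difference was 2.66 (SE 0.62, adjusted p = 0.0017). Tnfrsf17, the survival receptor BCMA of plasma cells, had HDM medians of 2.37 CPM at 3 weeks and 5.83 at 11 weeks against PBS medians of 1.41 and 0.582, a difference of 2.21 (SE 0.42, adjusted p = 0.00016). Derl3, which acts in disposal of misfolded secretory protein, differed by 2.21 (SE 0.42, adjusted p = 0.00017), and Mzb1, an endoplasmic reticulum cofactor of antibody secretion, by 1.70 (adjusted p = 0.0058). Xbp1, the factor that drives the secretory programme, differed by 0.54 (adjusted p = 0.0005), and Sdc1 by 0.31 (adjusted p = 0.048). Sdc1 no longer passed in most of the 41 fits that left out 1 library. Of the B cell list, which holds Ms4a1 (-0.32, adjusted p = 0.56) and Pax5 (0.46, adjusted p = 0.34), 0 of 12 passed in limma-voom, edgeR or DESeq2, with median effects of 1.67 and 1.52. In limma-voom 1 passed lower without 3-week PBS library X161 or without X81, and 2 passed lower with library quality weights.

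**Figure D2:**
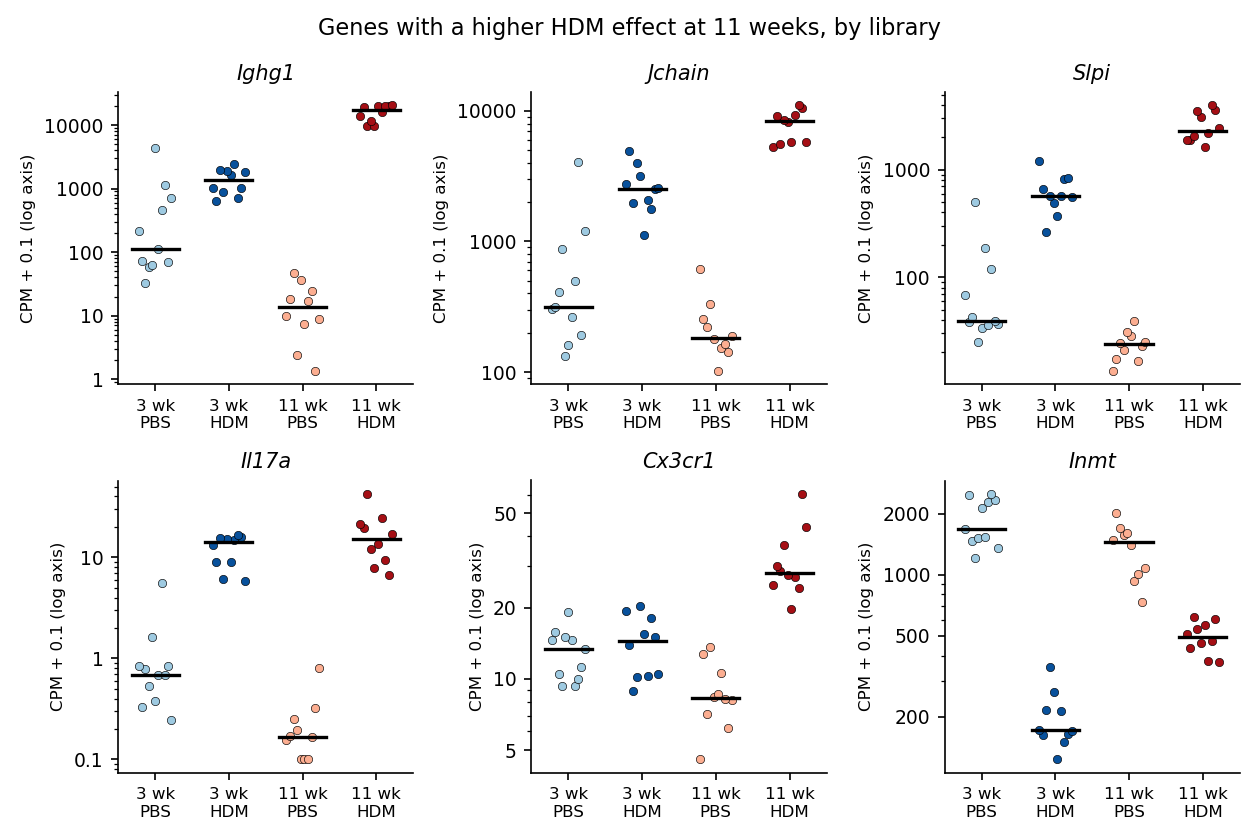
Level of 6 genes in each of the 41 libraries, as CPM plus 0.1 on a log axis; points are libraries and bars are group medians. For Ighg1, Jchain and Slpi the 11-week HDM libraries lie above all others, and X21 is the highest 3-week PBS library. For Inmt the 11-week HDM libraries (372.2 to 618.5 CPM) lie between 3-week HDM (median 171.3) and both PBS groups.

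Slpi, a secreted inhibitor of neutrophil elastase (chr2:164354070-164389095, minus strand), was called higher and was chosen for description after its values were seen. It was at 24.7 to 497 CPM (median 38.9) in 3-week PBS, 264 to 1204 (569) in 3-week HDM, 13.3 to 38.6 (23.7) in 11-week PBS and 1622 to 3977 (2312) in 11-week HDM libraries. The 11-week HDM libraries exceeded all others, and X21 was the 3-week PBS library that overlapped 3-week HDM. The effect was 3.24 at 3 weeks and 6.80 at 11 weeks, a difference of 3.55 (SE 0.57, adjusted p = 1.5e-05). Without the 5 PBS libraries it was 2.69.

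Of 9 tested genes of the IL-17 axis 2 passed higher and 2 lower. Il17a, also described after its values were seen, was at 0.146 to 5.42 CPM (median 0.59) in 3-week PBS, 5.72 to 16.6 (14) in 3-week HDM, 0 to 0.703 (0.0677) in 11-week PBS and 6.54 to 42.4 (15.2) in 11-week HDM libraries. HDM and PBS libraries were separate at both times, and the HDM libraries of the 2 times overlapped. The difference was 3.50 (SE 1.03, adjusted p = 0.011), made of a fall by 3.09 in PBS libraries and a change of 0.41 in HDM libraries. It no longer passed without the 5 PBS libraries (2.87, adjusted p = 0.0695). Il17f differed by 3.03 (SE 0.76, adjusted p = 0.003), with PBS medians of 0.405 and 0.0473 CPM and HDM medians of 1.3 and 1.53. Among those lower was Ccr6, the receptor that brings IL-17-producing lymphocytes to CCL20. It had PBS medians of 1.28 and 3.21 CPM and HDM medians of 17.1 and 11.8, a difference of -1.65 (SE 0.37, adjusted p = 0.0011). Il23r, Ccl20 and the receptors Il17ra and Il17rc did not pass.

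Several myeloid genes had a higher effect at 11 weeks while the broader macrophage lists did not. Ly6c2, a surface protein of inflammatory monocytes, was at 15.1 to 45 CPM (median 24.7) in 3-week PBS, 34.6 to 94.6 (45.8) in 3-week HDM, 16.8 to 42.2 (26.4) in 11-week PBS and 72.8 to 189.5 (138.8) in 11-week HDM libraries. The groups were separate at 11 weeks and overlapped at 3 weeks, and the difference was 1.46 (SE 0.28, adjusted p = 0.00019). Cx3cr1, the fractalkine receptor of monocyte-derived and interstitial macrophages, was described after its values were seen. HDM and PBS medians were 14.3 and 13.2 CPM at 3 weeks and 28 and 8.23 at 11 weeks, with overlap at 3 weeks and none at 11, and the difference was 1.76 (SE 0.27, adjusted p = 9.3e-06). Trem2, a lipid-sensing receptor of tissue macrophages, had HDM medians of 59 and 60.6 CPM and PBS medians of 9.07 and 4.54, a difference of 1.29 (SE 0.36, adjusted p = 0.0075), and Gpnmb differed by 1.498 (adjusted p = 0.016). Neither passed without the 5 PBS libraries (Trem2 1.06, adjusted p = 0.0629; Gpnmb 1.12, adjusted p = 0.106).

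Trem2 and Gpnmb were the 2 of 15 alternatively activated macrophage genes that passed higher, and 3 passed lower. Cd163, a haemoglobin scavenger receptor of resident macrophages, was at 7.06 to 21.5 CPM (median 11.7) in 3-week PBS, 2.9 to 59.8 (10.3) in 3-week HDM, 9.31 to 34.2 (14.3) in 11-week PBS and 1.66 to 6.69 (2.67) in 11-week HDM libraries. At 11 weeks every HDM library lay below every PBS library, while at 3 weeks they overlapped, and the difference was -2.24 (SE 0.57, adjusted p = 0.0039). The C-type lectin Cd209f showed the same order, with HDM medians of 1.77 and 0.597 CPM against PBS medians of 6.41 and 8.76 and a difference of -2.88 (SE 0.66, adjusted p = 0.0014), and Cd209g, its neighbour in sequence, differed by -2.76 (adjusted p = 0.0033). The Cd209 genes are not on that list. Ccl17, a ligand of CCR4 on type 2 lymphocytes, differed by -1.95 (adjusted p = 0.015) and Tgm2 by -0.66 (adjusted p = 0.00026). Of the 16 tested genes of the macrophage list 0 passed in limma-voom, 1 passed lower without 3-week HDM library X63, and 4 passed lower with library quality weights. Spi1, the transcription factor PU.1, had effects of 2.02 and 1.68 and a difference of -0.34 (SE 0.24, adjusted p = 0.32), and its HDM and PBS libraries were separate at both times. With library quality weights Spi1 passed lower (-0.60, adjusted p = 0.0385). Itgax, Clec7a, Il1rn and Ptafr differed by 0.28, 0.26, -0.51 and -0.38, with adjusted p-values from 0.36 to 0.69. The first 2 changed sign when voom used library quality weights (-0.03 and -0.08).

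Other genes called higher had a negative effect at 3 weeks. This held for the 5 genes with the smallest p in this direction, of which 4 had an effect nearer 0 at 11 weeks, while Ces2e went from -1.72 to 0.36. Plxdc2 had medians of 170.3, 46, 122.7 and 74 CPM in 3-week PBS, 3-week HDM, 11-week PBS and 11-week HDM libraries and a difference of 1.17 (SE 0.12, adjusted p = 2.9e-08). Snai2, a zinc finger repressor active in mesenchymal cells, had medians of 11.7, 2.81, 6.1 and 5.03 CPM and a difference of 1.69 (SE 0.18, adjusted p = 2.9e-08). Nfib, a nuclear factor of lung development, had 378.6, 96.7, 218.7 and 135.4 CPM and a difference of 1.39 (SE 0.15, adjusted p = 3.5e-08). For these 3 genes HDM and PBS libraries did not overlap at 3 weeks and did at 11. In Snai2 and Nfib the larger change was in the PBS libraries.

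Il17d, a cytokine distant in sequence from IL-17A, had medians of 3.71, 0.753, 2.63 and 1.57 CPM and a difference of 1.64 (SE 0.18, adjusted p = 3.5e-08), and remained separate between HDM and PBS at 11 weeks. Ces2e, a carboxylesterase, had 3.52, 1.12, 3.22 and 4.24 CPM and a difference of 2.08 (SE 0.24, adjusted p = 1e-07), and its 11-week HDM libraries were all above its 3-week HDM libraries. Inmt and Itga8, chosen after their values were seen, are genes of lung mesenchyme. Inmt, an N-methyltransferase, was at 1215 to 2506 CPM in 3-week PBS, at most 353.2 (median 171.3) in 3-week HDM, 736.4 to 2014 in 11-week PBS and 372 to 618 in 11-week HDM libraries, a difference of 1.85 (SE 0.24, adjusted p = 6.4e-07). Itga8, an integrin chain of fibroblasts and smooth muscle, had medians of 209.8, 29.7, 178.5 and 72.5 CPM and a difference of 1.72 (SE 0.23, adjusted p = 1.1e-06). In both, the 11-week HDM libraries were all above the 3-week HDM libraries, so the fall under HDM was smaller at 11 weeks.

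Matrix and growth factor genes followed this form in part. On the list of matrix and remodelling genes other than collagens, 5 of 20 passed higher and 1 lower. Fbln5, an organiser of elastic fibres, had medians of 113.8, 42.7, 91.5 and 72 CPM and a difference of 1.28 (SE 0.18, adjusted p = 2e-06), and Loxl1, a crosslinker of elastin, differed by 1.13 (adjusted p = 0.00056). Eln, elastin itself, went the other way, with a difference of -1.16 (SE 0.35, adjusted p = 0.013), since its PBS median was 26 CPM at 3 weeks and 59.2 at 11 weeks. Of the 16 TGF-beta and BMP genes 4 passed higher, among them Bmp4 (0.73, adjusted p = 0.0017), while Grem1, a BMP antagonist, passed lower (-2.06, adjusted p = 0.019). Of 16 collagens 1 passed, Col6a3 (0.68, adjusted p = 0.0025). Col1a1 and Col3a1 did not, at 0.17 (adjusted p = 0.76; -0.21 without the 5 PBS libraries) and 0.48 (adjusted p = 0.19), and neither did Tnc at -0.06 (adjusted p = 0.9).

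Alveolar type I genes were among those whose fall under HDM was smaller at 11 weeks. Of 10 members, 6 passed higher and 0 lower, with a median effect of -1.03 at 3 weeks and -0.17 at 11 weeks, and 3 of 12 alveolar type II genes passed higher (6 without 3-week PBS library X81). Akap5, which anchors protein kinase A, was at 88.6 to 483 CPM in 3-week PBS, 33.1 to 210 in 3-week HDM, 96 to 559 in 11-week PBS and 178.7 to 384.7 in 11-week HDM libraries. The groups overlapped at both times, and the difference was 1.51 (SE 0.48, adjusted p = 0.019). Rtkn2 differed by 1.43 (adjusted p = 0.024) and Hopx by 0.86 (adjusted p = 0.028). The summed level of the type I list was 2630 to 7734 CPM in 3-week PBS, 1080 to 4302 in 3-week HDM, 2350 to 7245 in 11-week PBS and 3043 to 5962 in 11-week HDM libraries. How much parenchyma remained on the dissected airway was not measured, and its part in these differences and in those of the mesenchymal genes was not tested.

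Of 9 eosinophil genes 3 passed lower, and of 13 mucus cell genes 1 did, no more than the background of 11.6%. The mucus count depended on the model, with 5 lower in edgeR, 6 in DESeq2, and 6 lower and 1 higher in a fit of all libraries of the series. Clca1, a secreted regulator of mucus in goblet cells (chr3:145003817-145032776, minus strand), was at 8.1 to 449 CPM (median 17.8) in 3-week PBS, 265 to 7337 (3779) in 3-week HDM, 11.7 to 956 (31.2) in 11-week PBS and 20.8 to 1635 (410) in 11-week HDM libraries. The groups overlapped at both times, and single PBS libraries (X81 at 449 CPM and X5 at 956 CPM) were high. The effect was 6.49 at 3 weeks and 2.91 at 11 weeks, a difference of -3.58 (SE 1.17, adjusted p = 0.022). Muc5ac, the gel-forming mucin of goblet cells, had medians of 8.01, 269, 5.71 and 55.5 CPM and did not pass in limma-voom, at -1.82 (SE 0.74, adjusted p = 0.069), where Clca1 was the 1 of the 13 that did. Muc5ac did pass lower in edgeR (-2.15, adjusted p = 0.0123), in DESeq2 (-2.18, adjusted p = 0.00482) and in the fit of all libraries (-1.81, adjusted p = 0.00124). In limma-voom the count on the list was 4 without 3-week HDM library X183, and 2 without 11-week HDM library X169 or 3-week PBS library X81. Chil4, a chitinase-like protein, had medians of 0.239, 298, 0.796 and 4.73 CPM, but spread so widely within groups that its difference of -6.09 had an SE of 2.75 (adjusted p = 0.1, limma-voom). It passed lower in edgeR (-7.58, adjusted p = 0.000989), in DESeq2 (-7.65, adjusted p = 1.86e-05) and in the fit of all libraries (-6.06, adjusted p = 0.00573).

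The eosinophil count was 3 lower and 0 higher in limma-voom, edgeR and DESeq2. Over the 9 tested members, 6 differences were negative and 3 positive, with a median of -0.664. Epx and Ear6, also on the list, were not tested. Ccr3, the eotaxin receptor of eosinophils (chr9:124021972-124031689, plus strand), was at 0.685 to 3.05 CPM (median 1.18) in 3-week PBS, 7.1 to 26.7 (14.6) in 3-week HDM, 1.87 to 4.39 (2.2) in 11-week PBS and 1.8 to 10.4 (4.85) in 11-week HDM libraries. HDM lay above PBS in every library at 3 weeks and overlapped it at 11 weeks, and the difference was -2.56 (SE 0.46, adjusted p = 7.7e-05). Ccl24, an eotaxin made by macrophages, had medians of 4.14, 9.14, 3.88 and 1.24 CPM, so that its effect went from 1.22 to -1.57, and differed by -2.79 (SE 0.75, adjusted p = 0.0055). Alox15, a lipoxygenase of eosinophils and macrophages, differed by -1.59 (adjusted p = 0.025). Ccl11, the other eotaxin measured, did not pass, at -0.45 (SE 0.61, adjusted p = 0.63).

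Among type 2 cytokines and receptors 2 of 13 passed in each direction in limma-voom, against 3 higher and 0 lower in edgeR. Il13, the cytokine that drives mucus change, was at 0 to 0.0623 CPM in 3-week PBS, 0.284 to 2.62 (median 0.78) in 3-week HDM, 0 to 0.178 in 11-week PBS and 0.036 to 0.847 (0.375) in 11-week HDM libraries. Its difference of -2.23 (SE 0.82, adjusted p = 0.043) lost its call in more than 20 of the 41 fits that left out 1 library, without the 5 PBS libraries (-2.30, adjusted p = 0.086), in edgeR (-2.77, adjusted p = 0.0599) and with library quality weights (-2.04, adjusted p = 0.0633). Il5ra, a receptor chain of eosinophils, differed by -1.22 (adjusted p = 0.018) in limma-voom, but did not pass in edgeR (-0.99, adjusted p = 0.0796) or DESeq2 (-1.01, adjusted p = 0.0629). Gata3, a factor of type 2 lymphocytes and of luminal epithelium, passed higher: its medians were 9.04, 5.12, 7.41 and 7.53 CPM, a difference of 1.15 (SE 0.23, adjusted p = 0.0003). Il17rb, a receptor chain for IL-25, passed higher (1.27, adjusted p = 0.029), but not without X103, without X25 or without the 5 PBS libraries. Il4 (-1.03, adjusted p = 0.16) and Il33 (-0.40, adjusted p = 0.12) did not pass, and Il5, Il9 and Il25 fell below the filter on low counts.

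**Figure D3:**
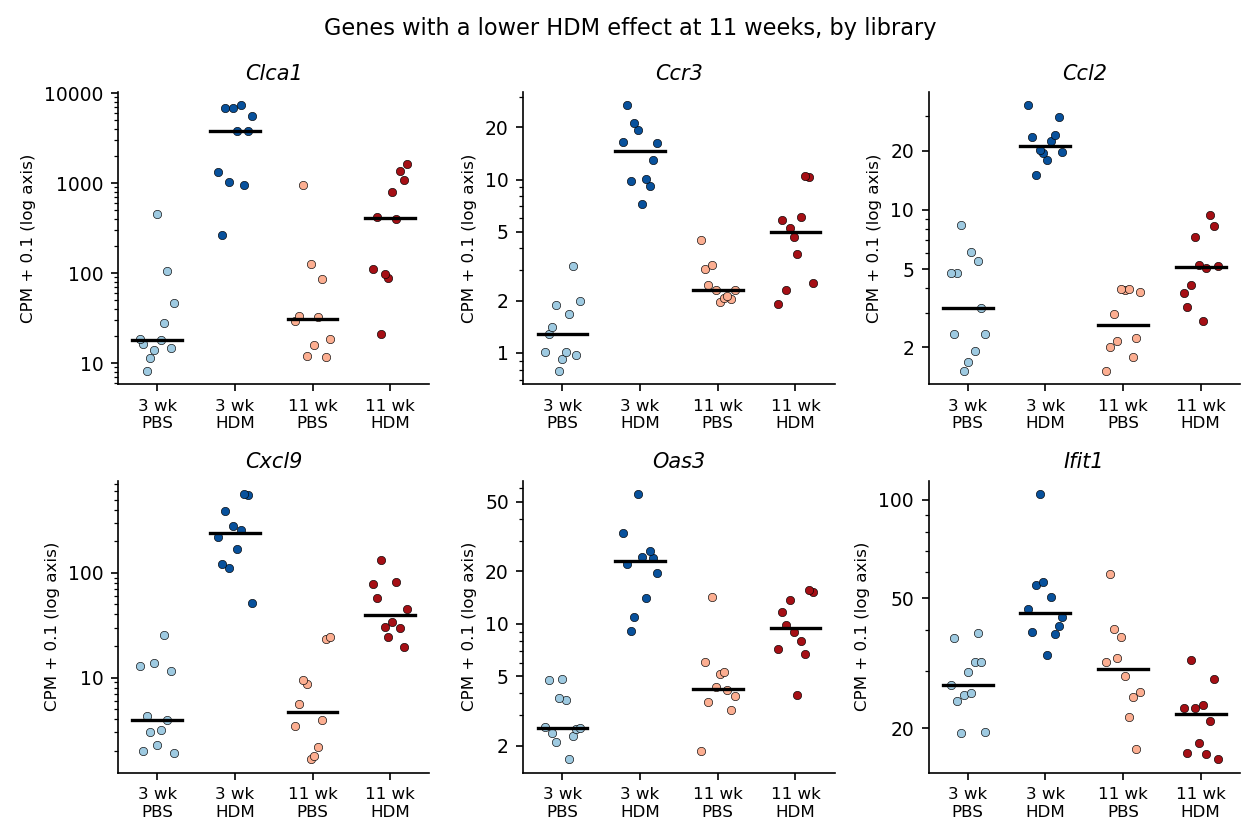
Level of 6 genes in each of the 41 libraries, as CPM plus 0.1 on a log axis; points are libraries and bars are group medians. For each gene the median of 3-week HDM lies above that of 11-week HDM, from 3779 to 410 CPM in Clca1 and from 45 to 22 CPM in Ifit1, and for Ccl2 and Ifit1 the HDM libraries of the 2 times do not overlap.

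Of 12 monocyte chemokine and receptor genes 3 passed lower and 1, Ly6c2, higher. Ccl2, the main ligand of CCR2 on monocytes, was at 1.42 to 8.25 CPM (median 3.06) in 3-week PBS, 14.8 to 33.8 (21.1) in 3-week HDM, 1.42 to 3.88 (2.49) in 11-week PBS and 2.62 to 9.29 (5) in 11-week HDM libraries. Every 11-week HDM library was below every 3-week HDM library, and the difference was -1.79 (SE 0.37, adjusted p = 0.00047). Ccl7, a second CCR2 ligand, had medians of 2.2, 18.9, 2.4 and 4.83 CPM and differed by -1.75 (SE 0.40, adjusted p = 0.0013), and Ccl12 differed by -0.94 (adjusted p = 0.021). Il10, a cytokine that restrains inflammation, had medians of 0.269, 2.24, 0.214 and 0.735 CPM and differed by -1.78 (SE 0.56, adjusted p = 0.017).

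The ligands of CXCR3, induced by interferon gamma, were at the edge of the test. Cxcl9 (chr5:92321347-92328079, minus strand) was at 1.82 to 25.2 CPM (median 3.84) in 3-week PBS, 51.9 to 568 (238) in 3-week HDM, 1.55 to 24.4 (4.63) in 11-week PBS and 19.6 to 131.2 (39.6) in 11-week HDM libraries. HDM and PBS were separate at 3 weeks and overlapped at 11 weeks, and the difference was -2.24 (SE 0.76, adjusted p = 0.028). Cxcl10 had medians of 1.49, 31.2, 0.933 and 6.83 CPM and a difference of -2.16 (SE 0.78, adjusted p = 0.039), and Cxcl11 differed by -3.03 (SE 1.08, adjusted p = 0.036). Gbp2, a guanylate-binding protein, differed by -1.40 (SE 0.29, adjusted p = 0.00041). Cxcl9 did not pass without X125 or without X65, and without the 5 PBS libraries neither did Cxcl10 (adjusted p = 0.0699) nor Cxcl11 (adjusted p = 0.0635). Irf1 differed by -0.56 (adjusted p = 0.037), and in all 6 of 11 genes of the list passed lower and 0 higher. The count fell to 2 without 11-week PBS library X125 and to 3 without 11-week PBS library X65, and was 3 without the 5 PBS libraries.

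Genes induced by type I interferon had a lower effect at 11 weeks on every member measured, and most passed. Of 16 members 12 passed lower and 0 higher, 8 of them with a call, against a background of 11.6% passing lower. The median effect was 1.18 at 3 weeks and 0.28 at 11 weeks. The count was 12 to 14 in the fits that left out 1 library and 12 without the 5 PBS libraries. Oas3, a sensor of double-stranded RNA (chr5:120753098-120777661, minus strand), was at 1.57 to 4.71 CPM (median 2.42) in 3-week PBS, 9.04 to 55.5 (22.9) in 3-week HDM, 1.77 to 14.1 (4.16) in 11-week PBS and 3.8 to 15.5 (9.31) in 11-week HDM libraries. HDM was above PBS in every library at 3 weeks and overlapped it at 11 weeks, with a difference of -1.82 (SE 0.47, adjusted p = 0.004).

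Ifit1, which binds foreign RNA caps, was at 19.3 to 39 CPM (median 27.1) in 3-week PBS, 33.4 to 104.3 (45) in 3-week HDM, 17.3 to 59.4 (30.4) in 11-week PBS and 16 to 32.3 (22) in 11-week HDM libraries. Its effect was 0.81 at 3 weeks and -0.50 at 11 weeks, a difference of -1.31 (SE 0.25, adjusted p = 0.00021), and the HDM libraries of the 2 times did not overlap. Oasl2 had medians of 25.3, 85.2, 30.8 and 42.1 CPM and a difference of -1.36 (SE 0.30, adjusted p = 0.001). Isg15, a ubiquitin-like modifier, had 19.3, 59.5, 14.9 and 20.6 CPM and a difference of -1.28 (SE 0.34, adjusted p = 0.005). Irf7, the factor that amplifies interferon production, differed by -1.03 (adjusted p = 0.0064) and Rsad2, the antiviral enzyme viperin, by -1.67 (adjusted p = 0.01). Library X125 was the highest 11-week PBS library for Isg15 (47.9 CPM) and Oasl2 (109.6 CPM).

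Because these genes had a lower effect together, the bases upstream of their start sites were searched for 2 sequences known from interferon signalling. The interferon-stimulated response element (ISRE) was written as GAAANNGAAA on either strand and the gamma-activated sequence (GAS) as TTCNNNGAA, where N is any base, in the 250 bases before each start in the RefSeq promoter table (GRCm38.p6). The ISRE was found in 7 of the 12 type I interferon genes with an entry and in 2 of 7 genes of the CXCR3 ligand list, against 3.46% of all 27025 genes with an entry. The GAS was found in 3 of the 12 and 2 of the 7, against 8.13% of all. A match is a description of the letters and no evidence of a bound site. The type I list was written as genes induced by interferon, so a raised ISRE share follows from that choice. It says nothing about the difference between the times. The stretches below hold the match nearest the start of 6 genes that passed lower. Oasl2, Usp18, Irf7, Mx1 and Cxcl11 were also tried for the ISRE and Cxcl9 for the GAS. They gave no stretch, for want of a match or of an entry. Each stretch reads 5′ to 3′ on the strand of the gene with 20 bases on each side. Capitals mark the match, which in Irf1 is the GAS and in the others the ISRE.
Isg15, chr4:156200855-156200904, minus strand: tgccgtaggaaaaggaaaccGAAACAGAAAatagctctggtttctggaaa
Ifit1, chr19:34640784-34640833, plus strand: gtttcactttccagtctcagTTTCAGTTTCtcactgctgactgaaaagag
Rsad2, chr12:26456543-26456592, minus strand: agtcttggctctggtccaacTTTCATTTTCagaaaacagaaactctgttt
Oas3, chr5:120777705-120777754, minus strand: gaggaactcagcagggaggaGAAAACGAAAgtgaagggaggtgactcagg
Cxcl10, chr5:92349073-92349122, minus strand: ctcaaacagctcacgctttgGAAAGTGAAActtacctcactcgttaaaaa
Irf1, chr11:53769904-53769952, plus strand: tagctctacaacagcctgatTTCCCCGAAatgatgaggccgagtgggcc
In Ifit1 and Rsad2 the match reads as the reverse complement, and Isg15 held 3 matches in its window.

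**Figure D4:**
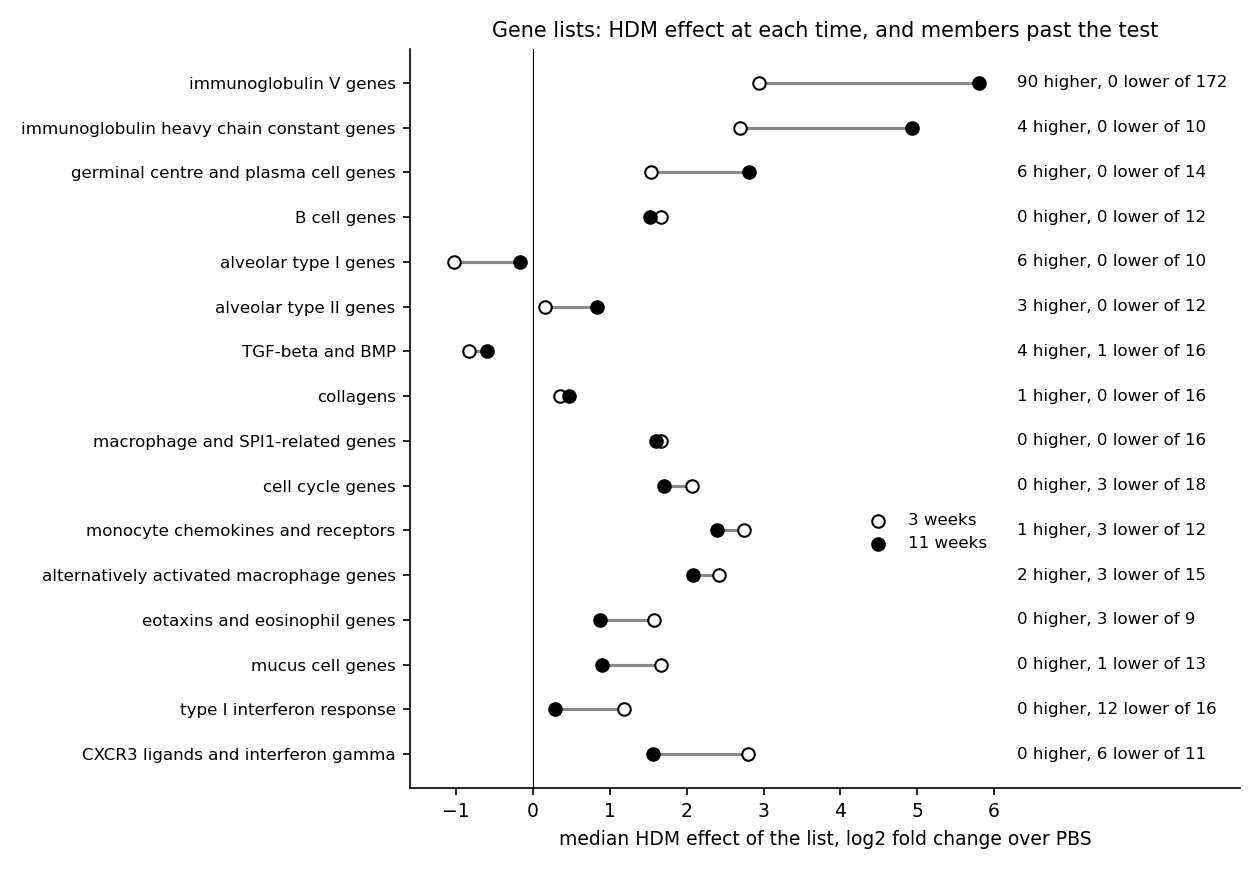
Median log2FC of HDM over PBS for 16 gene lists at 3 weeks (open circles) and 11 weeks (filled circles); the text at the right gives how many members passed the test of the difference, higher or lower, of those tested. Immunoglobulin and plasma cell lists moved up, from 2.94 to 5.81 for V genes, and interferon lists moved down, from 1.18 to 0.28 for the type I list, while the B cell list had medians of 1.67 and 1.52.

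For most genes called lower the control libraries changed more than the HDM libraries. The PBS libraries changed more than the HDM libraries in 294 of the 412 genes called lower and in 30.4% of the 471 called higher. In the 294, the median change from 3 to 11 weeks was 1.23 in PBS and -0.16 in HDM libraries. Kif13b, a kinesin motor, had the smallest p of the called genes that have a symbol. It was at 4.16 to 8.14 CPM (median 6.66) in 3-week PBS, 11.3 to 17.4 (14.3) in 3-week HDM, 17.1 to 25.9 (20.7) in 11-week PBS and 13.7 to 25 (17) in 11-week HDM libraries. Its 3-week PBS libraries lay below all others, and the difference was -1.45 (SE 0.15, adjusted p = 2.1e-08). Eif4ebp2, a repressor of translation, had medians of 11.3, 34.1, 30.5 and 37.3 CPM and a difference of -1.35 (SE 0.14, adjusted p = 2.3e-08), and Sntb1, a syntrophin, had 7.05, 11.6, 18.3 and 11.4 CPM and -1.42 (SE 0.15, adjusted p = 2.5e-08). Cbl, a ubiquitin ligase described after its values were seen, had 5.07, 24.2, 15.7 and 22.3 CPM and a difference of -1.97 (adjusted p = 9.5e-07).

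The genes led by the controls differed in transcript length from the rest, as a description without a test. The longest annotated transcript had a median of 4956 bases over the protein-coding genes called lower with the larger change in PBS, 2138 bases over those called higher with the larger change in PBS, and 3314 bases over all 15446 protein-coding genes tested. For calls led by HDM libraries the medians were 2856 bases (called lower) and 3277 bases (called higher). The part of RNA quality or library preparation in the shift of the 3-week PBS libraries was not tested.

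**Figure D5:**
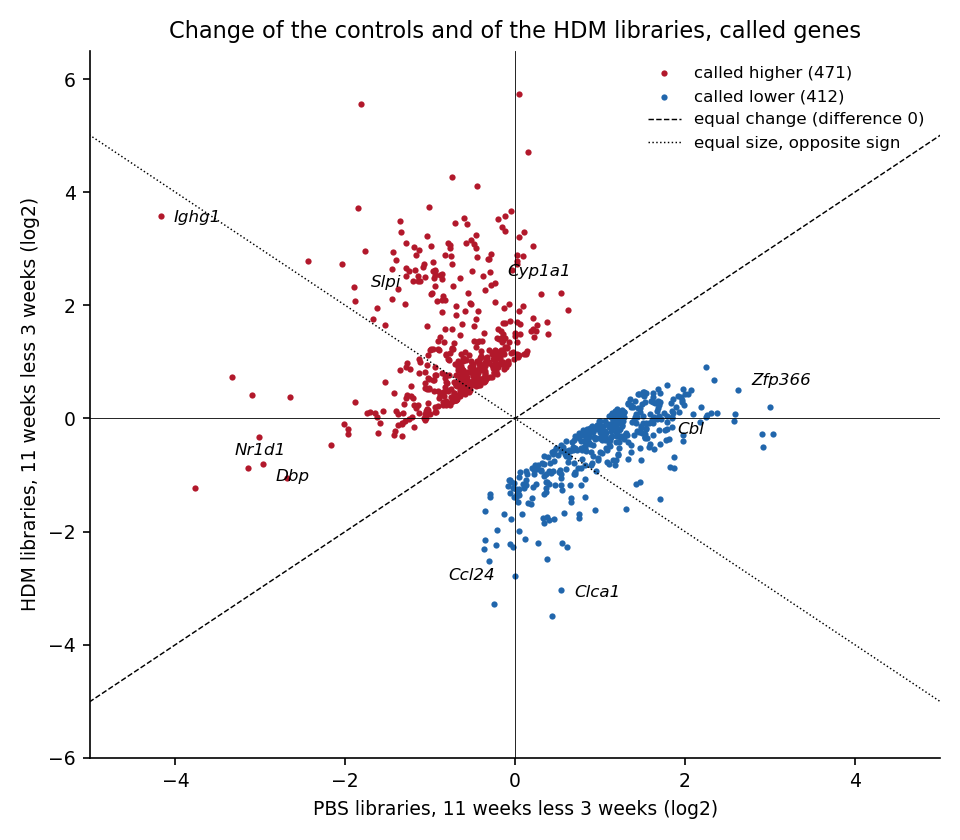
Each point is a called gene, with the change from 3 to 11 weeks in PBS libraries on the horizontal axis and in HDM libraries on the vertical axis, in log2; on the dashed line the difference is 0 and on the dotted line both changes have the same size. Among the 412 genes called lower (blue), 294 lie on the side where the PBS change is the larger, and among the 471 called higher (red) 30.4% do.

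Several clock genes, whose transcripts cycle over the day, shifted in the controls. Dbp and Nr1d1, outputs of the clock that peak once a day, had medians of 129.6 and 86.7 CPM in 3-week PBS, 20.5 and 16.2 in 3-week HDM, 9.79 and 5.94 in 11-week PBS and 9.49 and 7.41 in 11-week HDM libraries. The 11-week PBS libraries were all below the 3-week PBS libraries in both genes. Their differences were 2.16 (SE 0.56, adjusted p = 0.004) and 2.28 (SE 0.58, adjusted p = 0.0035). The naming rule did not pick Dbp and Nr1d1. Cry1, which it did pick, passed lower (-0.935, adjusted p = 2.76e-06, limma-voom). Bhlhe41, a repressor in the same loop, had medians of 32.8, 33.6, 16.5 and 54.5 CPM and a difference of 1.65 (SE 0.24, adjusted p = 2.7e-06), with HDM above PBS in every library at 11 weeks. Nfil3, an antagonist of DBP, had 3.97, 18.9, 11 and 14.6 CPM and a difference of -1.44 (SE 0.28, adjusted p = 0.0002). Of 16 clock genes 3 passed higher and 3 lower, and 5 passed higher without any 1 of the 11-week PBS libraries X125, X145 and X185. The hour of tissue collection is not in the labels, and its part was not tested.

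Other lists also held genes that passed. Of 13 glucocorticoid target genes 3 passed lower and 0 higher in limma-voom, and 2 to 4 passed lower without 1 library. These were Cdkn1a (-0.80, adjusted p = 0.00038), Fkbp5 (-1.04, adjusted p = 0.024) and Zbtb16 (-1.81, adjusted p = 0.041). Zbtb16 did not pass without the 5 PBS libraries (-1.605, adjusted p = 0.104). Of 17 xenobiotic and antioxidant genes 2 passed higher and 3 lower. Cyp1a1, the xenobiotic enzyme controlled by the aryl hydrocarbon receptor, had medians of 6.15, 0.236, 5.07 and 1.24 CPM, effects of -4.70 and -2.06 and a difference of 2.64 (SE 0.71, adjusted p = 0.0059). It did not pass when all libraries of the series (2.63, adjusted p = 0.344) or all airway libraries (2.65, adjusted p = 0.327) were fitted together. The antioxidant enzyme gene Gclc passed lower (-0.71, adjusted p = 0.00011). The epithelial sodium channel genes Scnn1b and Scnn1g, with the water channel gene Aqp5, passed higher (0.71, 0.94 and 0.73), 3 of 9 ion transport genes. Of 18 cell cycle genes 3 passed lower, with Top2a at -0.71 (adjusted p = 0.041), and 1 passed without any 1 of X125, X65 and X41, 5 without X25 or X63, 6 without X81 and 0 without the 5 PBS libraries, while Mki67 had a difference of -0.02 (adjusted p = 0.97). Of 13 tested memory and cytotoxic lymphocyte genes, Gzmk, a granzyme of T cells, passed higher (1.55, adjusted p = 0.01) and Gzmb lower (-1.07, adjusted p = 0.027), the latter no longer without the 5 PBS libraries (-0.77, adjusted p = 0.158).

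Immune regulators and vessel genes gave single members. Ciita, the master regulator of MHC class II, had medians of 12.4, 97.5, 18.5 and 62.3 CPM and a difference of -1.02 (SE 0.24, adjusted p = 0.0017), and was the 1 of 9 genes of its list that passed. Retnlg, a product of neutrophils, had medians of 12, 65.5, 10.4 and 21 CPM and differed by -1.56 (SE 0.40, adjusted p = 0.0036). Cd274, which encodes PD-L1, differed by -0.83 (adjusted p = 0.024), but did not pass without the 5 PBS libraries (adjusted p = 0.0686). Sele, the E-selectin of activated endothelium, had medians of 1.08, 3.27, 1.18 and 1.3 CPM and differed by -1.59 (adjusted p = 0.016), while Aplnr, the apelin receptor, differed by 1.19 (adjusted p = 0.028) and did not pass without X63. Of the genes named by size in the lower direction and not yet given, Alox12e, an epidermal-type lipoxygenase, had medians of 2.19, 22.7, 2.86 and 4.93 CPM and differed by -2.47 (SE 0.70, adjusted p = 0.0084). Glod5 (-2.87) and Trim30c (-2.92) were under 3 CPM in every group median. In limma-voom Ankfn1 differed by -2.27 (adjusted p = 0.000621) and BC023105 by -2.44 (adjusted p = 0.0253). BC023105 did not pass without the 5 PBS libraries (-2.63, adjusted p = 0.0547).

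In 15 of the 45 lists 0 members passed in limma-voom, and of these 15 lists 5 had a member that passed in edgeR and 7 in DESeq2. The 15 lists included the 13 lymphoid chemokine genes tested, such as Cxcl13 (-0.96, SE 0.57, adjusted p = 0.22; -1.44, adjusted p = 0.0435 without the 5 PBS libraries) and Ccl21a (-0.34, adjusted p = 0.64), the 14 smooth muscle genes, such as Acta2 (-0.85, SE 0.56, adjusted p = 0.28) and Myh11 (-1.04, SE 0.58, adjusted p = 0.19), the 10 club cell genes, such as Scgb1a1 (-0.22, adjusted p = 0.57; 0.07 with library quality weights), and the 15 ciliated cell genes, such as Foxj1 (-0.73, adjusted p = 0.11). In the fit of all libraries Myh11 (-1.04, adjusted p = 0.0177) and Foxj1 (-0.73, adjusted p = 0.012) passed lower, and the counts were 3 smooth muscle and 4 ciliated cell genes, all lower. In limma-voom 1 smooth muscle gene passed lower without X181, X183 or X85, and 1 ciliated cell gene without X9.

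Arg1 and Retnla, products of IL-4 and IL-13 signalling in macrophages, had differences of -2.09 (SE 0.98, adjusted p = 0.12) and -1.13 (SE 0.54, adjusted p = 0.12), with medians of 122.2 and 3018 CPM in 3-week HDM and 18.7 and 1069 CPM in 11-week HDM libraries. Arg1 passed lower in edgeR (-1.96, adjusted p = 0.0203), in DESeq2 (-1.99, adjusted p = 0.00755) and in the fit of all libraries (-2.08, adjusted p = 0.0241). Cma1, a mast cell chymase, was at -1.30 (adjusted p = 0.064) in limma-voom, and passed lower in edgeR (-1.53, adjusted p = 0.0214), in DESeq2 (-1.54, adjusted p = 0.0091) and in the fit of all libraries (-1.30, adjusted p = 0.0155). Gzma, a granzyme, was at -0.32 (adjusted p = 0.6). Of the mast cell and basophil genes 0 of 13 passed in limma-voom and 3 passed lower in edgeR and in DESeq2. In limma-voom 4 passed without X81 or without X103, 3 without X165 or X183 and 2 without X185. A p that misses the threshold does not show that the effects were equal.

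Tissues beside the airway varied between libraries. The summed level of the cardiac muscle list was 468 to 6647 CPM in 3-week PBS, 85.7 to 1376 in 3-week HDM, 487 to 4479 in 11-week PBS and 115.9 to 768.1 in 11-week HDM libraries, and that of the adipose list was 279 to 2083, 42.3 to 1219, 537 to 3970 and 19.7 to 422 CPM. Among 15 cardiac genes 1 passed higher (Myh7, 0.82), and 0 of 12 adipose genes and 0 of 7 erythrocyte genes passed in limma-voom. Of the adipose genes 2 passed lower in edgeR and 3 in DESeq2. Of the erythrocyte genes 1 passed higher without any 1 of X161, X25, X5, X63 and X81, and 0 passed in edgeR or DESeq2. The part of these tissues in the differences above was not tested.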

How the data were processed

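Bulk RNA-seq counts of airway tissue were analysed from 41 libraries. The submitters' processing notes name bcl2fastq 2.20.0.422, STAR 2.5.1b, RSEM 1.2.31, kallisto 0.44.0 and build mm10. The authors deposited 1 table of estimated counts per gene, not scaled for depth or length, and which quantifier made it is not given in the sources used here. Of 43346 identifiers, 42462 matched GENCODE M21 without the version and 884 did not. Strand of counting is not stated, so overlapping genes cannot be told apart.

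Here counts were rounded, a gene was kept when at least 9 libraries reached the CPM that 10 counts make in a library of median size, and limma 3.58.1 (voom, TMM of edgeR 4.0.16; R 4.3.3) fitted 4 group means. Alternatives used edgeR's quasi-likelihood test and DESeq2 1.42.0. The fit was tested on simulated data. No 2 libraries of a group agreed within sampling noise. The labels name no pairing of libraries.

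The members and gene lists were chosen with earlier results of these data known. Genes were named by rule: per direction the 10 largest differences called in every leave-one-out fit with at least 1 CPM in a group mean and a symbol that neither starts with Gm nor ends in Rik, the 5 smallest p-values, up to 3 per list and a set of asthma genes whatever their values. Genes outside both this rule and the lists are said to be chosen after their values were seen. Other list members, such as Dbp, Nr1d1, Isg15, Cxcl10 and Gpnmb, are described though the rule did not name them. No rule chose those members. Some members of the lists are counted but not reported here by name.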

Additional observations from a re-analysis of the deposited data

Results flagged for a closer look

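In 48 described genes, the 3-week HDM, 11-week PBS.AIR and 11-week HDM.AIR groups (10 libraries each) were tested for a library far from the others. With each gene in each of these groups as a test, 11 tests found such a library. Chance alone gives about 5% of all these tests, so much of this count is expected by chance. The 3-week PBS group, with 11 libraries, was not tested. Each value below is the gap between that library and its nearest neighbour as a share of the range of the group, both on the log2 CPM scale, followed by the levels of both in CPM. The highest library of the 11-week PBS.AIR group stood apart for Igkc in X65 (0.533, 661.3 and 255.3 CPM), Oasl2 in X125 (0.568, 109.6 and 43.9 CPM), Isg15 in X125 (0.596, 47.9 and 20.5 CPM), Ccr6 in X65 (0.531, 9.78 and 4.36 CPM) and Chil4 in X5 (0.587, 133.9 and 1.96 CPM). The lowest library of the 3-week HDM group stood apart for Trem2 in X63 (0.577, 15.8 and 42.3 CPM). The lowest library of the 11-week HDM.AIR group stood apart for Il17d in X189 (0.490, 0.855 and 1.25 CPM) and Il10 in X69 (0.472, 0.184 and 0.474 CPM). The lowest library of the 11-week PBS.AIR group stood apart for Itga8 in X5 (0.525, 67.6 and 127.1 CPM). The highest library of the 3-week HDM group stood apart for Ifit1 in X103 (0.544, 104.3 and 56.2 CPM). The highest library of the 11-week HDM.AIR group stood apart for Cyp1a1 in X49 (0.533, 7.53 and 1.96 CPM).

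The HDM effect differed between 11 and 3 weeks in limma-voom for 471 genes called higher and 412 called lower, and for 44 of the described genes. The log2 differences of those higher at 11 weeks were Ighg1 (7.75), Igkc (3.00), Igha (2.15), Jchain (2.66), Tnfrsf17 (2.21), Derl3 (2.21), Slpi (3.55), Il17a (3.50), Il17f (3.03), Ly6c2 (1.46), Trem2 (1.29), Cx3cr1 (1.76), Snai2 (1.69), Nfib (1.39), Plxdc2 (1.17), Il17d (1.64), Ces2e (2.08), Inmt (1.85), Itga8 (1.72), Fbln5 (1.28), Bhlhe41 (1.65), Gata3 (1.15), Cyp1a1 (2.64) and Akap5 (1.51). Those lower at 11 weeks were Clca1 (-3.58), Ccr3 (-2.56), Ccl24 (-2.79), Il13 (-2.23), Ccl2 (-1.79), Ccl7 (-1.75), Cxcl9 (-2.24), Cxcl10 (-2.16), Oas3 (-1.82), Oasl2 (-1.36), Ifit1 (-1.31), Isg15 (-1.28), Cd163 (-2.24), Cd209f (-2.88), Kif13b (-1.45), Eif4ebp2 (-1.35), Sntb1 (-1.42), Ccr6 (-1.65), Il10 (-1.78) and Nfil3 (-1.44).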

How the results depend on the processing

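Of the genes tested, 2.67% were called higher and 2.34% lower. Leaving out 1 library at a time gave 2.42% to 2.84% higher and 2.1% to 2.69% lower. Leaving out the 5 PBS libraries together, a choice made after seeing the data, gave 2.17% and 2.14%. A filter of 10 CPM gave 1.31% and 1.19% of 11743 genes tested, and a test against a log2 difference of 1 (treat) gave 0.0454% and 0.0341%, or 8 and 6 genes. The other alternatives gave 380 to 564 genes higher and 412 to 561 lower, including edgeR (522 and 498) and DESeq2 (542 and 561). Of the named genes, those that passed and no longer did numbered 3 in edgeR, 2 in DESeq2, 3 with all libraries in 1 fit, 4 with all airway libraries, 1 with quality weights, 4 without a filter on low counts, 8 under the 10 CPM filter (which removed 34) and 12 without the 5 PBS libraries. Those that passed in addition numbered 4 in edgeR, 4 in DESeq2, 6 with all libraries, 4 with all airway libraries, 2 with quality weights and 1 without the 5 PBS libraries.

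Genes that did not pass changed sign in places, and the cause was not tested. Clec7a was -0.011 in edgeR, -0.028 in DESeq2 and -0.083 with quality weights, and -0.030 to 0.374 without 1 library. Quality weights gave Itgax -0.031 and Scgb1a1 0.066, and Col1a1 was -0.214 without the 5 PBS libraries. Without 1 library, Tnc was -0.169 to 0.025 and Mki67 was -0.128 to 0.053.

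The library codes run in sets of 20 consecutive numbers, and most sets hold 1 library of each group, while the labels do not say what a set is. With the set as a replicate block, chosen after seeing the data, 3.11% were called higher and 2.44% lower. Of the 471 and 412 genes, 432 and 364 were among them, 5 named genes no longer passed (among them Cxcl9 and Il5ra) and 4 passed in addition (Chil4, Cma1, Foxj1 and Muc5ac), while Mki67 (0.026) and Tnc (0.133) changed sign. Deviations from the group means had a median correlation of 0.0286 within a set (57 pairs of libraries of different groups, -0.459 to 0.534) and -0.0155 between sets, so the sets were not taken as pairs. Low counts limit precision: genes such as Ighe and Il13 lay under 3 CPM in every library.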
